A study of Petromyzon marinus with 17 samples.

Results

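Non-methylated islands (NMIs) of adult brain were compared with those of adult muscle in the sea lamprey, Petromyzon marinus, a jawless vertebrate. NMIs were mapped by BioCAP, in which sonicated genomic DNA is incubated with the biotinylated CxxC zinc finger of human KDM2B, and the DNA that it retains is sequenced. The series holds lists of NMIs for 12 libraries of 6 tissues, and 4 of these libraries enter the comparison, namely brain replicates 1 and 2 and muscle replicates 1 and 2. Both tissues are labelled adult and carry no treatment. By the reporting summary of the study the replicates were biological, and those of either tissue came from a male and a female adult, so the spread between replicates takes in sex. Which replicate was the male, and whether brain and muscle were taken from the same fish, is not given in the sources used here. An NMI of a tissue is a stretch of bases covered by an interval in both of its replicates (minimum overlap 1 bp), and NMIs of brain and muscle that overlapped or touched were merged. This gave 146333 brain and muscle NMIs, against 166793 when the NMIs of all 6 tissues were merged. The tissue labels were not checked against marker genes, as the lists name no genes, and no genes or sequences at these positions were analysed here.

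In most vertebrate genomes the majority of CpG sites are methylated, and the CpG-rich islands that escape methylation lie largely at promoters and other regulatory elements. The study describes the lamprey genome as different, with intermediate methylation at most CpG sites. CxxC domains bind CpG sites only when these are unmethylated, which is why the domain of KDM2B, a protein that recruits a Polycomb complex to CpG islands in mammals, can be used as a probe. Many islands are free of methylation in every tissue, and others gain or lose methylation as cells differentiate. An interval in a list is a region in which the pulldown exceeded the background estimated by the peak caller, so a region without an interval is one that was not called, which is not the same as one that is methylated.

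Brain NMIs covered more of the genome than muscle NMIs, although the lists were about equally long. Brain replicates 1 and 2 held 130672 and 141921 intervals, and muscle replicates 1 and 2 held 140638 and 141334. The 2 muscle lists thus lay between the 2 brain lists. Brain intervals covered 94.8 and 109.9 Mb in the respective replicates, and muscle intervals covered 80.1 and 77.9 Mb. The means were 102 ± 10.6 Mb in brain and 79.0 ± 1.57 Mb in muscle (SD, n = 2 each), a difference of 23.3 Mb, and both brain libraries lay above both muscle libraries. The difference in coverage came with a difference in width. The median interval spanned 540 and 564 bp in the brain replicates, and 446 and 432 bp in the muscle replicates. Intervals of 2 kb or wider made up 3.96% and 5.12% of the brain lists, but 1.10% and 0.962% of the muscle lists. The widest brain intervals spanned 15917 and 16279 bp, and the widest muscle intervals 7651 and 7638 bp. In a two-sided exact permutation test over libraries, coverage and median width each gave p = 0.333, the smallest p that 2 libraries against 2 allow, and the number of intervals gave p = 1 (exact permutation test).

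**Figure D1:**
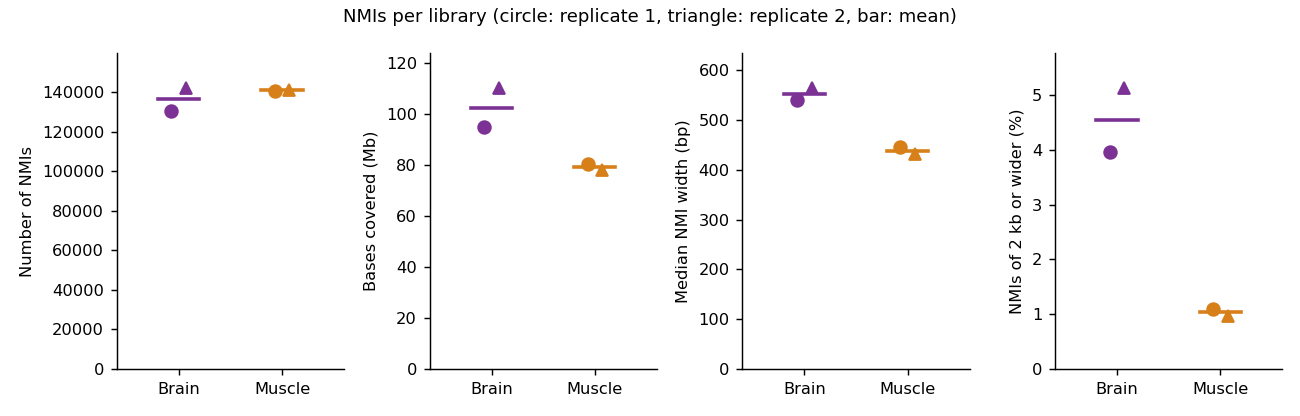
Number of NMIs, bases covered in Mb, median NMI width in bp and percentage of NMIs of 2 kb or wider in each brain library (purple) and muscle library (orange), with replicate 1 as a circle, replicate 2 as a triangle and the mean of 2 libraries as a bar. The numbers of NMIs overlap between the tissues, whereas coverage (94.8 and 109.9 Mb against 80.1 and 77.9 Mb) and width are higher in both brain libraries.

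The tissues differed in the enrichment of their intervals as well as in width. The median fold enrichment over the background of the peak caller was 7.57 and 6.76 in the brain replicates and 10.5 and 10.6 in the muscle replicates, so the tissue with the wider NMIs had the lower enrichment. The labels give 34 to 307 M read pairs per sample over the whole series, and the sequencing summary of the study lists replicate 2 as the deeper library in both tissues. The deeper brain library had wider intervals than the shallower one, and the deeper muscle library had narrower ones. The part of depth and of enrichment in the width difference was not tested. Several results that depend on the length of the lists were repeated with equally long lists. In these, each library kept its 130672 most significant intervals, ranked by -log10 q. The difference in coverage was then 24.5 Mb and that in median width 115.5 bp (113 bp with the lists as deposited). Results given without a value from equally long lists rest on the lists as deposited. Equal length leaves the edges of the kept intervals unchanged and does not make depth or enrichment alike, so it is no check on either.

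Base for base, the libraries of a tissue resembled each other more than those of the other tissue. The Jaccard index (bases covered in both lists divided by bases covered in either) was 0.771 between the brain replicates and 0.867 between the muscle replicates. Between a brain and a muscle library it ranged from 0.585 to 0.639, below both replicate pairs. The mean of the replicate pairs exceeded that of the 4 brain-muscle pairs by 0.207, whereas the highest of the other ways to pair the 4 libraries gave -0.0989. Over the 3 pairings, the exact permutation test (one-sided) gave p = 0.333, the smallest p that this design allows. The index is limited by any difference in bases covered, and brain lists covered more than muscle lists. The part of coverage in the index was not tested.

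Most NMIs were shared. Of the 146333 merged NMIs, 106158 (72.5%) held a brain and a muscle NMI, 21047 held a brain NMI only (brain-private) and 19128 held a muscle NMI only (muscle-private). Brain-private NMIs were thus 14.4% and muscle-private NMIs 13.1% of all merged NMIs, and these shares are the background for the positions and tissues described below. Shared NMIs covered 85.7 Mb, brain-private NMIs 7.43 Mb and muscle-private NMIs 6.24 Mb. Private NMIs were narrow in both tissues. The median width was 623 bp for shared NMIs, 294 bp for brain-private and 292 bp for muscle-private NMIs, and 24.2% of shared NMIs but only 1.32% of brain-private and 0.324% of muscle-private NMIs spanned 1 kb or more. Merging joins the stretches of both tissues, so shared NMIs can be wider by construction.

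The 2 private classes did not have a fixed order of size. With equally long lists, 23762 brain-private (17%) and 16164 muscle-private NMIs (11.6%) were found beside 99927 shared ones. The order turned once intervals under a -log10 q of 5 were left out, with 16933 brain-private and 20848 muscle-private NMIs. A minimum of 10 gave 12138 and 20925. Leaving out a library put the whole list of the other replicate in place of the bases common to both. That adds intervals to the tissue, so more private NMIs in it, and fewer in the other, can follow by construction. Without brain replicate 1, there were 33210 brain-private and 12974 muscle-private NMIs. Without muscle replicate 1 or 2 there were more muscle-private NMIs (22969 and 23505) than brain-private NMIs (18185 and 18401). Over the 15 alternatives tried, the ratio of brain-private to muscle-private NMIs ranged from 0.580 to 2.56 and was above 1 in 9. No direction is therefore drawn from these 2 counts.

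A private NMI can still carry an interval in 1 library of the other tissue. Of the brain-private NMIs, 15561 (73.9%) had no interval in either muscle library and 5464 had one in a single muscle library, 12.6% of all in replicate 1 and 13.6% in replicate 2. Of the muscle-private NMIs, 11314 (59.1%) had no interval in either brain library and 7795 had one in a single brain library. These were unevenly spread, as 8.78% of muscle-private NMIs had an interval in brain replicate 1 and 32.2% in replicate 2. Overlaps close to the minimum of 1 bp were few. Among the 107362 brain NMIs that overlapped a muscle NMI, 153 shared under 100 bp with it, and of the private NMIs, 0.295% in brain and 0.272% in muscle lay within 100 bp of a shared NMI.

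The classes were then called from replicate 1 alone and read in replicate 2, which had no part in the call. Of 19854 NMIs found in brain replicate 1 and not in muscle replicate 1, 89.3% had an interval in brain replicate 2 and 14.8% in muscle replicate 2. Of 20967 NMIs found in muscle replicate 1 only, 82.3% had an interval in muscle replicate 2 and 32.2% in brain replicate 2. The tissue of origin was therefore recovered more often than the other tissue in both directions. In the opposite direction, with the call in replicate 2, 29315 NMIs were found in brain only, of which 54.2% had an interval in brain replicate 1 and 10.3% in muscle replicate 1. The corresponding 15481 muscle NMIs had an interval in muscle replicate 1 in 83.4% and in brain replicate 1 in 11.6% of cases. A call made in brain replicate 2 alone was thus the least often repeated, with 43.7% of those NMIs found in neither library of replicate 1. With equally long lists, 68.0% of brain-only NMIs called in replicate 2 had an interval in brain replicate 1, against 11.5% in muscle replicate 1.

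Private NMIs lay in the weaker part of each list. The median fold enrichment of intervals at brain-private NMIs was 4.05 and 4.42 in the brain replicates, against 9.19 and 8.81 at shared NMIs. In the muscle replicates it was 6.08 and 6.18 at muscle-private NMIs, against 12.4 and 12.6 at shared NMIs. An interval must pass the threshold of the peak caller in the one tissue and miss it in the other to be private, so a lower fold is a description of these NMIs. Among all intervals of brain replicate 1, 37.2% of the weakest 25% by fold but 0.248% of the strongest 25% had no interval in either muscle library. In brain replicate 2 these shares were 50.1 and 0.414%. In muscle replicate 1, 23.5% of the weakest and 0.830% of the strongest 25% had no interval in either brain library, and in replicate 2 22.9 and 0.770%. Over all intervals the shares were 12.9 and 18.5% in the brain replicates and 10.1 and 9.69% in the muscle replicates. In the strongest 10% of the lists, 15 and 25 intervals of the brain replicates (0.115 and 0.176%) lacked a muscle interval. In the muscle replicates 45 and 42 intervals (0.320 and 0.297%) lacked a brain interval. Strong NMIs found in only 1 of the tissues were thus rare in all 4 lists.

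The other 4 tissues, whose libraries had no part in defining the classes, carried shared NMIs far more often than private ones. NMIs of PBMCs (peripheral blood mononuclear cells, common to both replicates) were found at 82.4% of shared, 30.3% of brain-private and 19.5% of muscle-private NMIs. The 2 PBMC libraries taken singly held 34.3 and 41.7% of brain-private NMIs and 23.1 and 24.9% of muscle-private NMIs, without overlap between the classes. Sperm carried 81.3% of shared, 35.6% of brain-private and 40.4% of muscle-private NMIs, and in sperm the library values of the private classes overlapped (36.9 and 46.7% against 41.3 and 46.7%). Day 1 embryos carried 71.0, 22.6 and 26.2% of the respective classes, and day 2 embryos 59.4, 9.86 and 14.0%. Both day 2 libraries had more muscle-private NMIs (19.1 and 19.1%) than brain-private NMIs (13.9 and 13.8%), the reverse of the order in PBMCs. Counting only private NMIs without an interval in either library of the other tissue, PBMCs carried 25.1% of brain-private and 12.9% of muscle-private NMIs, and day 2 embryos 9.11 and 11.7%. In sperm and day 1 embryos the order turned by this count, to 32.7 against 31.9% and 21.1 against 20.3%. With equally long lists and all private NMIs counted, the day 1 libraries turned too (brain-private 36.8 and 35.0%, muscle-private 33.5 and 33.9%). No order of the private classes is therefore drawn in sperm or day 1 embryos. In those lists PBMC libraries (40.2 and 48.0% against 25.8 and 26.9%) and day 2 libraries (16.7 and 16.7% against 20.8 and 21.1%) kept their order. No test is given, as NMIs of a library are not replicates and each of these tissues has 2 libraries. Shared NMIs were also wider (median 623 bp against 294 and 292 bp) and higher in fold than private ones. The classes were not matched in width or fold, and the part of these in the shares was not tested. The sequencing summary of the study lists a much lower share of uniquely mapped reads in the embryo BioCAP libraries than in those of the other tissues.

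**Figure D2:**
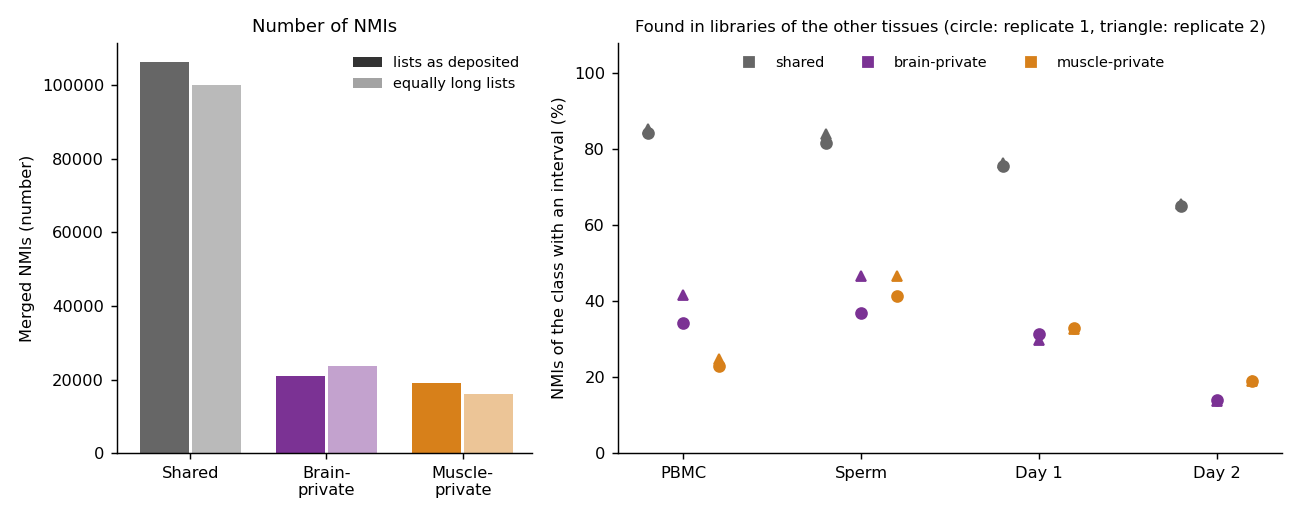
Left, number of merged NMIs in each class with the lists as deposited (dark) and with equally long lists (light). Right, percentage of the shared (grey), brain-private (purple) and muscle-private (orange) NMIs with an interval in replicate 1 (circle) and replicate 2 (triangle) of the other tissues. Shared NMIs lie highest in all 8 libraries, and brain-private lie above muscle-private NMIs in PBMC libraries and below them in day 2 libraries.

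Of the brain-private NMIs, 9601 (45.6%) were found in none of the other 4 tissues, as were 9111 (47.6%) of the muscle-private and 6.23% of the shared NMIs. A further 3341 brain-private NMIs (15.9%) were found in PBMCs but not in sperm or embryos, and 5066 (24.1%) in sperm or embryos but not in PBMCs. For muscle-private NMIs these numbers were 1701 (8.89%) and 6279 (32.8%). Among shared NMIs they were 11273 (10.6%) and 12055 (11.4%). Sperm and embryos are 3 tissues against 1, so the values of a class are not set against each other.

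The longest private NMIs without any interval in the other tissue differed in whether other tissues had them. The longest brain-private NMI lay on scaffold PIZI01005093v1 of petMar3 from 9840 to 12204 (2365 bp), with a fold of 6.61 and 5.74 in the brain replicates. It also had intervals in all sperm, day 1 and day 2 libraries and in no PBMC library. The opposite pattern was seen on PIZI01001508v1 from 11389 to 13680 (2292 bp), with a fold of 5.03 and 5.59, where PBMCs were the only other tissue with intervals. The NMI on PIZI01006375v1 from 2912 to 4998 (2087 bp) was weak, with a fold of 1.67 and 1.29, and was found in sperm and both embryo stages. The next, on PIZI01000153v1 from 73360 to 75313 (1954 bp), had a fold of 9.59 and 6.91 and no interval in any library outside brain. The fifth, on PIZI01000004v1 from 19538801 to 19540750 (1950 bp), had a fold of 11.6 and 13.7 and an interval in every library except those of muscle.

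Among the longest muscle-private NMIs, 3 of 5 reached a fold near 20 or above in both libraries. The longest lay on PIZI01000052v1 from 5338148 to 5340215 (2068 bp), with a fold of 25.1 and 19.8 in the muscle replicates and intervals in both PBMC libraries, both sperm libraries and 1 day 1 library. The NMI on PIZI01000027v1 from 13358758 to 13360502 (1745 bp) had a fold of 26.1 and 24.2, and was also found in both PBMC libraries, both day 2 libraries and 1 day 1 library. The NMI on PIZI01000018v1 from 12458550 to 12460167 (1618 bp), with a fold of 21.8 and 24.7, was found in muscle alone. The remaining 2 recurred in most other tissues. On PIZI01000024v1 from 3918074 to 3919721 (1648 bp) the fold was 4.91 and 5.13, and sperm and both embryo stages had intervals there. On PIZI01000032v1 from 4550762 to 4552377 (1616 bp) the fold was 13.5 in each replicate, and all libraries but those of brain had an interval.

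Much of the difference in coverage lay at NMIs that both tissues shared. Brain and muscle NMIs had 63.1 Mb in common, which was 70.8% of brain and 86.0% of muscle bases. A further 26.0 Mb were covered in brain only, of which 18.6 Mb (71.4%) belonged to shared NMIs and 7.43 Mb to brain-private NMIs. In muscle only, 10.3 Mb were covered, of which 4.06 Mb (39.4%) belonged to shared NMIs. With equally long lists the brain-only and muscle-only bases of shared NMIs came to 17.9 and 3.76 Mb. Brain thus extended beyond muscle at common sites more than muscle beyond brain, with both kinds of list.

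In the median, the extension was seen on both flanks. Of the shared NMIs, 96643 (91.0%) held 1 brain and 1 muscle NMI, with median widths of 546 and 449 bp. At 43.0% of them the brain NMI ran past the muscle NMI on both sides, and at 19.6% the muscle NMI ran past the brain NMI on both sides. The brain NMI reached a median of 20 bp further at the start and 19 bp further at the end. These are small distances against the fragment length of about 200 bp given in the labels.

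At 83652 NMIs that had exactly 1 interval in each of the 4 libraries and a base common to all of them, the values of single libraries could be set side by side. The median width there was 563 and 629 bp in the brain replicates, and 474.5 and 464 bp in the muscle replicates. Both brain intervals were wider than both muscle intervals at 48342 of these NMIs (57.8%), and both muscle intervals were wider at 11567 (13.8%). Brain intervals were 1.5 times or more as wide as both muscle intervals at 9084 NMIs (10.9%), and the reverse held at 855 (1.02%). The median ratio of brain to muscle width was 1.17, against 1.08 between brain replicates 2 and 1 and 0.990 between muscle replicates 2 and 1. The ratio was 1.16 for NMIs with a mean fold percentile in the lowest 25 points and 1.20 for those in the highest 25 points. With equally long lists these ratios were 1.10 and 1.21. Equally long lists gave 79476 such NMIs, of which both brain intervals were wider at 58.2% and both muscle intervals at 13.8%. In these, brain intervals were 1.5 times or more as wide at 10.9% and muscle intervals at 0.945%.

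The position of the strongest signal within these NMIs differed little between the tissues. Between a brain and a muscle library the median distance of the summits was 21 to 24 bp, against 21 bp between the brain replicates and 13 bp between the muscle replicates. Summits more than 200 bp apart were found at 4.73 to 5.99% of NMIs between the tissues, at 4.32% between the brain and at 2.68% between the muscle replicates. The rank of an NMI within its list differed more. The median difference in fold percentile was 12.3 to 14.6 points between the tissues, against 7.75 points between the brain and 4.92 points between the muscle replicates.

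The NMIs that differed most in width were wide in the one tissue and spanned under 500 bp in the other. On PIZI01000005v1 from 849367 to 853833, the brain intervals spanned 4467 and 4412 bp and the muscle intervals 401 and 471 bp, at a fold of 27.7 and 27.6 in brain and 16.4 and 21.7 in muscle. This site was strong in all 4 libraries, so its narrow muscle interval was not a weak one. On PIZI01000077v1 from 1051967 to 1055823, the widths were 3730 and 3808 bp in brain and 339 and 410 bp in muscle. On PIZI01010217v1 from 139 to 4407, where the contrast was largest, with 4261 and 4258 bp against 415 and 394 bp, the fold was only 1.19 to 2.12 in the 4 libraries. The remaining pair, on PIZI01000043v1 and PIZI01000008v1, spanned 1510 to 1916 bp in brain and 228 to 295 bp in muscle. In the other direction the contrasts were smaller. The NMI on PIZI01000012v1 from 1630922 to 1632214 spanned 237 and 215 bp in brain and 1293 and 1241 bp in muscle, with a fold of 3.80 and 2.43 against 17.7 and 23.5. It had no NMI in PBMCs, sperm or embryos. The other 4 of these, on PIZI01000037v1, PIZI01000082v1, PIZI01000002v1 and PIZI01000046v1, spanned 222 to 447 bp in brain and 949 to 1848 bp in muscle. All 4 had at least 1 NMI in PBMCs and none in sperm or embryos.

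At the same 83652 NMIs, the fold percentile was 20 points or more higher in both brain libraries at 7569 (9.05%) and in both muscle libraries at 5639 (6.74%), and with equally long lists the shares were 10.6 and 6.73%. The largest contrast in favour of brain lay on PIZI01002693v1 from 15923 to 16507, with percentiles of 97.9 and 98.4 in the brain and 3.70 and 11.6 in the muscle replicates. No other tissue had an NMI there. It was followed by PIZI01009370v1 from 36 to 5518, with percentiles of 89.6 and 87.9 against 2.35 and 0.916, although all 4 intervals spanned 5472 to 5483 bp. The width of this NMI was therefore alike in both tissues while its rank was not. It begins at base 36, and whether the ends of the scaffold bound its width was not tested. In favour of muscle, the largest contrast lay on PIZI01000035v1 from 8606270 to 8606851, with percentiles of 0.297 and 1.45 in brain and 95.7 and 94.3 in muscle. The fold there was 2.08 and 2.26 in brain and 30.1 and 28.7 in muscle, and no other tissue had an NMI. The remaining contrasts were smaller. In favour of brain, the lower brain percentile exceeded the higher muscle percentile by 80.5 to 82.0 points on PIZI01002947v1, PIZI01000015v1 and PIZI01000021v1. In favour of muscle, the corresponding gap was 82.3 to 85.3 points on PIZI01000027v1, PIZI01000032v1, PIZI01000061v1 and PIZI01000024v1.

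A small share of brain NMIs overlapped several NMIs of muscle, and the opposite was rarer still. Of 128409 brain NMIs, 98800 overlapped 1 muscle NMI and 8562 (6.67%) overlapped 2 or more, among them 1050 with 3 or more and 26 with 5 or more. Of 135103 muscle NMIs, 1179 (0.873%) overlapped 2 or more brain NMIs, of which 25 overlapped 3 and none more. The ratio of the 2 counts was 7.26. It was above 1 in each of the 15 alternatives, from 4.03 without muscle replicate 2 to 54.5 when pieces up to 500 bp apart were counted as 1. The smaller count was the less stable one, with 777 split muscle NMIs without brain replicate 2 and 2007 without muscle replicate 2. Equally long lists gave 7635 split brain NMIs and 1076 split muscle NMIs.

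Splitting was also compared between single libraries, including replicates of the same tissue. Between 6.75 and 8.38% of the intervals of a brain library held 2 or more intervals of a muscle library, in the 4 pairs of libraries. Between 0.707 and 1.16% of the intervals of a muscle library held 2 or more of a brain library. The replicates give the background for these shares. Of the intervals of brain replicate 2, 4.57% held 2 or more of brain replicate 1, and 1.77% of replicate 1 held 2 or more of replicate 2. In muscle the shares were 1.38% and 0.698%. The splitting of brain by muscle exceeded every replicate pair, while the splitting of muscle by brain lay within the range of the muscle replicates. Replicates of a tissue differed less in width than the tissues did (medians 540 and 564 bp in brain, 446 and 432 bp in muscle). The part of width in these shares was not tested.

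**Figure D3:**
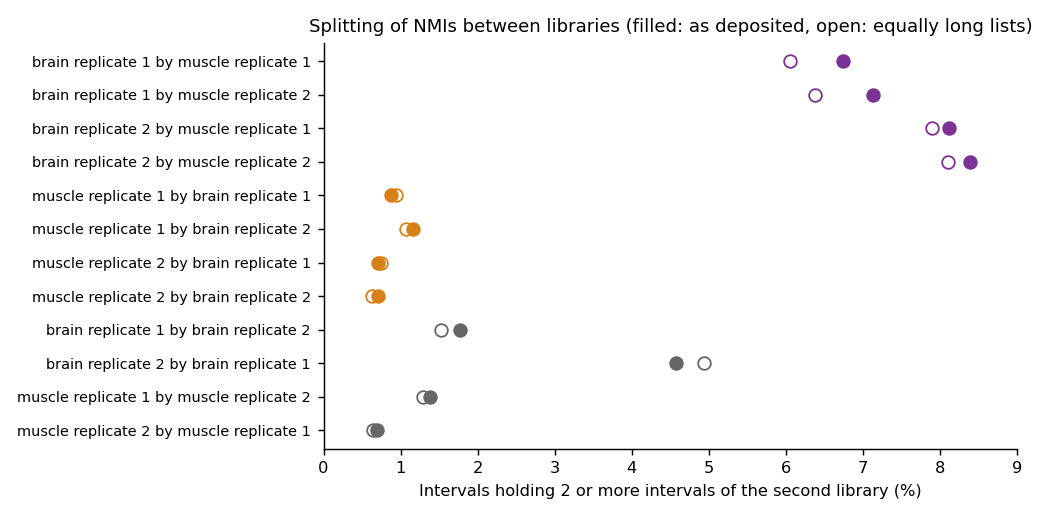
Percentage of the intervals of a library that held 2 or more intervals of a second library, for the lists as deposited (filled) and equally long lists (open). Brain intervals split by muscle (purple) lie at 6.75 to 8.38% as deposited, muscle intervals split by brain (orange) at 0.707 to 1.16%, and replicates of one tissue (grey) at 0.698 to 4.57%.

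Wide NMIs were split more often than narrow ones, and among NMIs of 1 kb or more those of brain were split more often than those of muscle. Among NMIs from 1 kb to under 2 kb, 24.2% of 19982 brain NMIs and 5.20% of 11053 muscle NMIs were split by the other tissue. Among those from 2 kb to under 3 kb the shares were 65.4% of 3382 and 10.1% of 981, and among those of 3 kb or more 83.5% of 1077 and 15.8% of 190. From 2 kb to under 3 kb, equally long lists gave shares of 62.1 and 10%. Among narrower NMIs the difference was small. Under 500 bp, where there is little room for 2 pieces and a gap, 1 of 61959 brain NMIs and 24 of 83294 muscle NMIs were split. No direction is read from these. From 500 bp to under 1 kb the shares were 1.48 and 1.14%, or 1.03 and 1.01% with equally long lists. The gaps between muscle pieces inside a brain NMI had a median of 284 bp (quartiles 210 and 406 bp), and 1411 of 9816 gaps (14.4%) were 500 bp or more. Gaps between brain pieces inside a muscle NMI were shorter, with a median of 190 bp, and 25 of 1204 reached 500 bp. With the muscle libraries merged, so that an interval in either one closed a gap, 7955 brain NMIs held 2 or more pieces. Intervals called in a single muscle library also count as pieces there, so the 7955 need not all be among the 8562. By the same count 466 muscle NMIs held 2 or more pieces of brain.

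Brain NMIs that were split in muscle were often split in other tissues too. Of the 8562 brain NMIs split in muscle, 66.9% held 2 or more NMIs of PBMCs, 61.1% of sperm, 64.8% of day 1 and 49.3% of day 2. Among brain NMIs with 1 muscle NMI, 1.84, 1.51, 3.55 and 2.80% did so. The contrast was smaller among NMIs of similar width. From 2 kb to under 3 kb, 81.9% of 2212 brain NMIs split in muscle were also split in PBMCs, against 22.6% of 1164 that were not split in muscle. In day 2 these shares were 68.6 and 46.5%. At that width, 36.4% of 99 muscle NMIs split in brain were split in PBMCs, against 23.0% of 881 that were not split in brain.

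The brain NMI with the most muscle pieces was also the longest shared NMI. It lay on PIZI01000019v1 from 6632335 to 6648251 (15917 bp), was a single interval in each brain replicate, and held 9 intervals of muscle replicate 1 and 8 of replicate 2. The muscle pieces spanned 235 to 4835 bp, were separated by gaps of 164 to 584 bp and covered 79.1% of the brain NMI. PBMCs had 9 NMIs there, sperm 7, day 1 embryos 11 and day 2 embryos 12. The highest fold was 17.9 and 10.2 in the brain replicates and 33.8 and 31.7 in the muscle replicates. Fold was lower in the brain lists as a whole, with medians of 7.57 and 6.76 against 10.5 and 10.6. No difference in enrichment is therefore read from this site.

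**Figure D4:**
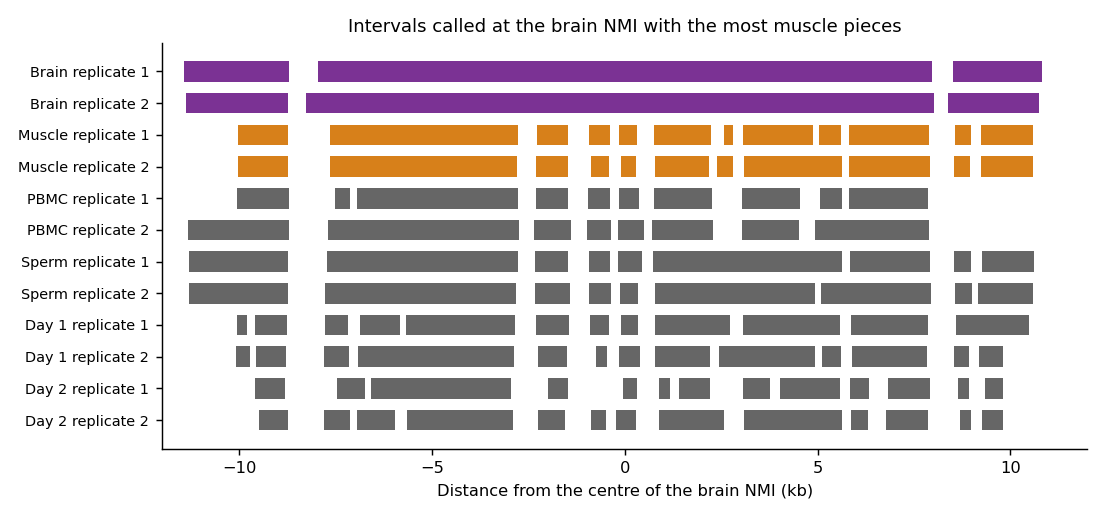
Intervals called in each of the 12 libraries at the brain NMI with the most muscle pieces, drawn to scale by distance from its centre in kb, with brain in purple, muscle in orange and the other tissues in grey. Both brain libraries have 1 interval across the 15917 bp, and the other tissues have gaps within it.

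The 4 brain NMIs that followed were likewise single intervals in both brain replicates. The NMI on PIZI01000059v1 from 4231377 to 4240475 (9099 bp) held 6 muscle NMIs, with 6 and 5 intervals in the muscle replicates. The NMI on PIZI01000006v1 from 20547364 to 20553363 (6000 bp) held 6 muscle NMIs, separated by gaps of 187 to 385 bp. The NMI on PIZI01000015v1 from 1711364 to 1719828 (8465 bp) held 5, with gaps of 360 to 1120 bp. These 3 were also divided in PBMCs, sperm and both embryo stages. The last, on PIZI01000001v1 from 20826391 to 20833540 (7150 bp), held 5 muscle NMIs that covered 52.7% of it and 5 NMIs of PBMCs, and had no interval in any sperm, day 1 or day 2 library.

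Of the 5 widest muscle NMIs with 3 brain NMIs inside, 2 were divided into 3 in both brain replicates. The widest lay on PIZI01000021v1 from 8747143 to 8750994 (3852 bp), with 3 intervals in each brain replicate, gaps of 183 and 1168 bp, and a fold of 8.81 and 7.35 in brain against 20.7 and 17.8 in muscle. The other lay on PIZI01000004v1 from 20177284 to 20180111 (2828 bp), with gaps of 183 and 396 bp. In the remaining 3 a brain replicate showed fewer pieces. On PIZI01000044v1 from 9097061 to 9099952 (2892 bp), brain replicate 1 had a single interval and replicate 2 had 3. On PIZI01000006v1 from 14617169 to 14620879 (3711 bp), each brain replicate had 2 intervals. On PIZI01000006v1 from 15510129 to 15512793 (2665 bp), the brain replicates had 2 and 3 intervals.

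The next longest shared NMIs were split in muscle too. On PIZI01000015v1 from 3912085 to 3922116 (10032 bp), each brain replicate had 1 interval and each muscle replicate 3. On PIZI01000009v1 from 14345141 to 14355161 (10021 bp), brain replicate 1 had 1 interval and replicate 2 had 2, while each muscle replicate had 4. The highest fold at the latter was 28.7 and 21.1 in brain and 41.8 and 41.9 in muscle.

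Private NMIs of a tissue lay next to each other more often than their share of all NMIs. The next NMI along the scaffold was brain-private for 18.9% of brain-private NMIs, 13.9% of shared and 11.0% of muscle-private NMIs, beside a share of 14.4% among all. The next NMI was muscle-private for 22.5% of muscle-private, 11.9% of shared and 10.2% of brain-private NMIs, beside a share of 13.1%. NMIs of opposite private classes were thus next to each other less often than either share. In equally long lists the next NMI was of the same class for 21.1% of brain-private NMIs (17% of all) and 20.6% of muscle-private NMIs (11.6% of all). No test is given, since neighbouring NMIs are not independent.

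Private NMIs of muscle lay further from shared NMIs than those of brain. The median distance to the nearest shared NMI was 1323 bp for brain-private and 2537 bp for muscle-private NMIs, and 1355 bp from a shared NMI to the nearest other one. Within 500 bp of a shared NMI lay 25.5% of brain-private and 11.8% of muscle-private NMIs. These distances depend on the merging. Brain NMIs were the wider ones, so a muscle NMI close to a common site could more readily be merged into the shared NMI. The part of this in the distances was not tested. Runs of consecutive NMIs of one private class were mostly short. There were 610 runs of 3 or more brain-private NMIs, with 9.80% of the class, and 760 runs of 3 or more muscle-private NMIs, with 13.9%. With equally long lists there were 818 such runs of brain-private NMIs (11.8% of the class) and 590 of muscle-private NMIs (12.5%). The order of the counts thus turned, and none is drawn from them.

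The longest run of muscle-private NMIs lay on PIZI01000056v1 from 5597041 to 5632007 and held 14 NMIs of 236 to 1361 bp. Each muscle replicate had 14 intervals there, with a median fold of 8.91 and 7.62, brain replicate 1 had none and brain replicate 2 had 1 of 216 bp. Sperm and both embryo stages had intervals in this stretch and PBMCs had none. A run of 9 on PIZI01000040v1 from 7767865 to 7794842 had 12 and 10 intervals in the muscle replicates and none in either brain replicate. A further run of 9, on PIZI01000057v1 from 2234122 to 2275334, had 10 intervals in each muscle replicate and 2 in each brain replicate. The brain intervals there were weak, with a highest fold of 4.16 and 4.61 against 24.4 and 18.6 in muscle.

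The longest run of brain-private NMIs lay on PIZI01000016v1 from 7995994 to 8019695 and held 9 NMIs of 206 to 1021 bp, with 9 intervals in each brain replicate and none in muscle. Their median fold was 3.67 and 4.04, and sperm had 8 NMIs in this stretch, day 1 embryos 6, day 2 embryos 3 and PBMCs 1. A run of 8 lay on PIZI01000005v1 from 818383 to 831827, with 8 intervals in each brain replicate and none in muscle. Sperm had 10 NMIs there, day 1 and day 2 embryos 7 each and PBMCs 1. In both of these runs sperm and embryos thus had more NMIs than PBMCs. These NMIs were counted over the whole span, gaps included, and not by overlap with the brain-private NMIs. A run of 7 on PIZI01000045v1 from 5190052 to 5213457 showed the opposite, with 6 intervals in each brain replicate, 5 NMIs in PBMCs and none common to both replicates in sperm or embryos. Muscle replicate 2 had 1 interval in it.

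Private NMIs were also counted in windows of 100 kb. Of 13553 windows with an NMI, 39.1% held no brain-private and 41.7% no muscle-private NMI, and 95 held 10 or more brain-private and 59 held 10 or more muscle-private NMIs. The window with the most brain-private NMIs lay on PIZI01000016v1 from 8000001 to 8100000, where 27 of 42 merged NMIs were brain-private. The brain replicates had 43 and 46 intervals there and the muscle replicates 16 and 18. A second window on the same scaffold, from 7800001 to 7900000, held 24 of 42, with 42 and 39 intervals in brain and 24 and 23 in muscle. The third, on PIZI01000002v1 from 1000001 to 1100000, held 21 of 43. These windows were chosen by their brain-private NMIs, so brain counts above muscle counts follow from the choice. Sperm had 40, 45 and 36 NMIs in them and PBMCs 18, 19 and 15. The sequencing summary of the study lists more peaks for each sperm library than for either PBMC library, and this was not allowed for.

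The windows with the most muscle-private NMIs lay on 3 different scaffolds. On PIZI01000029v1 from 5700001 to 5800000, 17 of 42 merged NMIs were muscle-private, with 43 and 41 intervals in muscle and 31 and 28 in brain. On PIZI01000129v1 from 200001 to 300000, 17 of 30 were muscle-private, with 36 and 30 intervals in muscle and 18 and 17 in brain. On PIZI01000035v1 from 9500001 to 9600000, 15 of 36 were muscle-private, with 34 and 38 intervals in muscle and 21 and 23 in brain. The other tissues differed among these windows. PBMCs had 27, 24 and 18 NMIs, sperm 21, 8 and 34, and day 2 embryos 9, 2 and 18, so the muscle-private windows did not share one pattern across tissues.

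**Figure D5:**
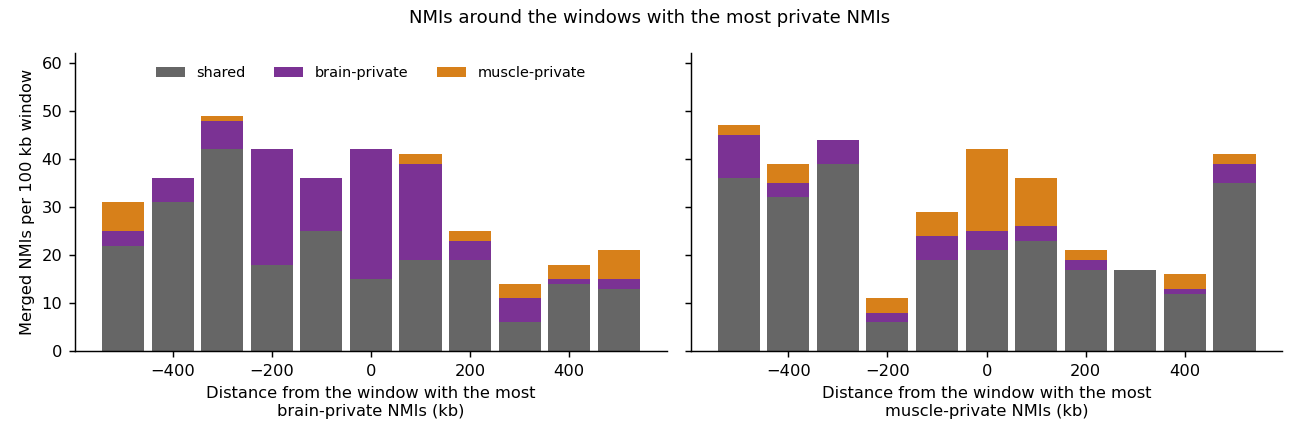
Number of merged NMIs per window of 100 kb, divided into shared (grey), brain-private (purple) and muscle-private (orange), by distance in kb from the window with the most brain-private NMIs (left, 27 of 42) and from the window with the most muscle-private NMIs (right, 17 of 42). Brain-private NMIs stay frequent over 4 windows on the left, and muscle-private NMIs over 2 windows on the right.

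Across whole scaffolds the private shares varied less. On the 65 scaffolds with 500 or more merged NMIs, brain-private NMIs made up between 9.69 and 20.8% (median 13.9%) and muscle-private NMIs between 10.3 and 18.3% (median 12.9%). The highest brain-private share was that of PIZI01000059v1, with 192 of 923 NMIs, and the highest muscle-private share that of PIZI01000034v1, with 285 of 1561. Some scaffolds had NMIs in a single tissue. Of 5370 scaffolds with an interval in any of the 4 libraries, 306 had intervals in both brain replicates and neither muscle replicate, and 178 had the reverse. They held few intervals, 343 and 391 in the brain replicates and 210 and 208 in the muscle replicates. The highest numbers were 3 intervals in each brain replicate, on PIZI01000831v1, PIZI01006375v1 and PIZI01008762v1. In muscle they were 3 and 4 on PIZI01003103v1, 3 in each replicate on PIZI01002357v1, and 2 and 3 on PIZI01006765v1. Of the 306 scaffolds with intervals in brain and not in muscle, 137 had them in both sperm and 91 in both PBMC replicates. Both replicates of day 1 embryos had intervals on 118 of these scaffolds, and those of day 2 embryos on 75. For the 178 of muscle the numbers were 80 in sperm, 42 in PBMCs, 64 at day 1 and 43 at day 2. These counts were not set against other scaffolds, so no order of tissues is drawn from them.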

How the data were processed

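BioCAP peak lists of 2 brain and 2 muscle libraries were compared, and the lists of the other 4 tissues were used to describe the classes. Reads had been trimmed (trimmomatic) and aligned to petMar3 (bowtie2) by the authors, who then discarded duplicates (Picard MarkDuplicates) and ran macs2, with 1 list per library. Neither the macs2 options nor the part of the 5 input libraries in peak calling is given in the sources used here. Each interval of the deposited lists carries a fold enrichment, which is a ratio to a background that macs2 estimated, besides a -log10 p-value, a -log10 q-value and a summit. The largest q-value was between 0.0486 and 0.0500 in the 4 lists. The lists hold no read counts, so no interval for counting error is given.

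For each tissue, the bases that both replicates covered were kept, and these stretches were merged between the tissues. Fold enrichment was ranked within its own list only, as a percentile. Per-library values were compared by exact permutation tests in Python 3.11.15 with NumPy 2.4.6, and the functions were tested on simulated lists. Positions are given from 1 on petMar3. No genome or annotation of this build was used, so no gene or sequence is named.

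Named are the longest private NMIs (5 per tissue, without an interval in the other tissue) and the 3 longest shared NMIs, the 5 NMIs with the most pieces in each direction, the 3 longest runs, windows and single-tissue scaffolds of each class, and the 5 NMIs with the largest contrast in fold percentile and in width in each direction. The members, classes and rules were chosen with earlier results of these data known. The alternatives were equally long lists (by -log10 q and by fold), a minimum -log10 q of 5 and of 10, intervals of either replicate, whole intervals of replicate 1, a reciprocal overlap of 50%, an overlap of 100 bp between tissues, merging up to 500 bp, a minimum stretch of 200 bp and each library left out. With a library left out, the whole list of the other replicate stood for its tissue. Counting an interval in either library of the other tissue was added after the data were seen.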

Additional observations from a re-analysis of the deposited data

How the results depend on the processing

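The number of shared NMIs stayed within 1.5 times its value under all 14 alternatives (84728 to 115369). Coverage and median width were higher in brain under all 9 (15.8 to 30.9 Mb and 101 to 188.5 bp). Leaving out a library could not have turned that order, as both brain libraries lay above both muscle libraries. The replicate block leaves the difference itself unchanged. The remaining alternatives, equally long lists and minimum -log10 q values, gave 19.4 to 24.6 Mb and 115 to 188.5 bp. Requiring a -log10 q of 10 or more gave 12138 brain-private NMIs and 662 split muscle NMIs. A reciprocal overlap of 50% between replicates gave 29173 muscle-private and 215 split muscle NMIs. Joining pieces up to 500 bp apart left 1362 split brain and 25 split muscle NMIs. When an interval in either library of the other tissue counted, there were 11314 muscle-private and 466 split muscle NMIs, an alternative chosen after seeing the data. With each library left out in turn, and the whole list of the other replicate used, brain-private NMIs ranged from 18185 to 33210. Split muscle NMIs then ranged from 777 to 2007. Likewise, the difference in the number of NMIs per library (brain minus muscle, -4689.5) ranged from -10314 to 935 with a library left out, turning without brain replicate 1, and was -13267.5 at a -log10 q of 10 or more. For that number, equally long lists give no value by construction. The within-tissue excess of the Jaccard index was 0.204 to 0.218 under all 4 alternatives.

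With the replicate number as a block, an exact permutation of signs over 2 pairs gave p = 0.5 for coverage (23.3 Mb) and for median width (113 bp), the smallest p it allows, and p = 1 for the number of NMIs (-4689.5). Over 83777 NMIs with 1 interval per library (83652 of them with a base common to all 4), replicate differences correlated between the tissues with r = 0.163 for log2 width and 0.396 for log2 fold enrichment, and either tissue had a male and a female replicate. As the sources used here do not tie a replicate number to a sex or to 1 fish, whether the numbers pair the libraries is not settled. An NMI missing from a list is one not called at that depth.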

Other observations

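Adjacent windows of 100 kb that each held 10 or more private NMIs of one class were joined into stretches, a choice made with their values in view. The longest spanned 400 kb on PIZI01000016v1 from 7800001 to 8200000, where 82 of 161 merged NMIs (50.9%) were brain-private and 2 were muscle-private. The brain replicates had 158 and 167 intervals there, the muscle replicates 93 and 97 and the PBMC replicates 92 and 99, whereas sperm had 165 and 180 and day 1 embryos 186 and 177. Of these brain-private NMIs, 89.0% were found in sperm, 78.0% in day 1, 51.2% in day 2 and 20.7% in PBMCs, against 35.6, 22.6, 9.86 and 30.3% of all brain-private NMIs. A stretch of 300 kb on PIZI01000005v1 from 700001 to 1000000 was of the same kind, with 43 brain-private NMIs of 97 and none private to muscle. Of these brain-private NMIs, 74.4% were found in sperm and 6.98% in PBMCs. Both stretches contain a run of brain-private NMIs described above, and that on PIZI01000016v1 also contains windows described above. That on PIZI01000005v1 also contains the NMI from 849367 to 853833, described above for its width. Neither stretch is therefore a separate site.

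In muscle the longest stretch showed a different makeup. It spanned 300 kb on PIZI01000034v1 from 8100001 to 8400000, where 35 of 64 merged NMIs (54.7%) were muscle-private. The muscle replicates had 66 intervals each, the PBMC replicates 46 and 51, the brain replicates 32 and 36, the sperm replicates 22 each and the day 1 replicates 17 and 19. Of these muscle-private NMIs, 45.7% were found in PBMCs and 8.57% in sperm, against 19.5 and 40.4% of all muscle-private NMIs. A stretch of 200 kb on PIZI01000001v1 from 15000001 to 15200000 did not share this makeup. There 24 of 55 merged NMIs were muscle-private, of which 12.5% were found in PBMCs and 20.8% in sperm.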
